A study of Mus musculus with 24 samples.

Results

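The nuclear genes of oxidative phosphorylation were followed in E14 mouse embryonic stem cells (mESCs) on soft and stiff hydrogels. Members were all genes whose symbols begin with Ndufa, Ndufb, Ndufc, Ndufs, Ndufv, Uqcr or Atp5, those that begin with Cox4, Cox5, Cox6, Cox7 or Cox8 and a letter, and Sdha, Sdhb, Sdhc and Sdhd. Symbols marked as pseudogenes were left out. The rule found 91 members among the 35022 genes counted in the PD03 removal experiment and 92 among the 48709 of the CHIRON removal experiment. Cox8b was found in the second table alone. All were protein-coding genes.

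Both experiments began with E14 cells, an established line that the labels describe as wild type on a 129 background, which had grown for 12 h on fibronectin-coated StemBond hydrogels in 2i+LIF. This medium holds LIF, 1 µM PD03, which inhibits MEK, and 3 µM CHIRON, which inhibits GSK3. At 0 h either PD03 was removed, which left CHIRON and LIF, or CHIRON was removed, which left PD03 and LIF. RNA was collected at 0 h (still in 2i+LIF, the control), 2 h and 12 h on each substrate, with 2 libraries for each substrate and time in each experiment. Everything therefore comes from 1 cell line, with fibronectin as the matrix and LIF present throughout. No library was kept in 2i+LIF to 2 h or 12 h. Changes from 0 h, called responses to removal below, cannot be told apart from those of longer culture.

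Oxidative phosphorylation runs on 5 complexes of the inner mitochondrial membrane. Complex I takes electrons from NADH and complex II from succinate, complex III passes them to cytochrome c, and complex IV hands them to oxygen. Complex V, the ATP synthase, makes ATP from the proton gradient that complexes I, III and IV build. Complex II is encoded in the nucleus throughout, whereas the other complexes also hold subunits encoded by mitochondrial DNA, so that their assembly draws on both genomes. Of the 92 members, 7 were core subunits of complex I, 31 its accessory subunits, 7 its assembly factors (Ndufaf genes), 4 subunits of complex II, 8 of complex III, 18 of complex IV and 17 carried Atp5 names (complex V). The groups follow the gene names, so Ndufa4, which is now known as a subunit of complex IV, and its paralogue Ndufa4l2 are counted with the accessory subunits of complex I. Likewise Atp5s and Atp5sl are counted with complex V by name alone.

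The PD03 removal libraries held 16222196 to 26442153 counts each, and the 11 used for CHIRON removal held 19393787 to 31111260. The stiff 2 h replicate 1 library of CHIRON removal held 171333 counts and was left out, so that this group had 1 library. Summed markers of embryonic stem cells (Pou5f1, Sox2, Nanog and 5 others) lay between 5967 and 7654 CPM (counts scaled to a common library total) in PD03 removal, and between 5386 and 6018 CPM in CHIRON removal. Those of fibroblasts, primitive endoderm and muscle stayed at or below 15.2 CPM in every library. Nothing in the labels says that the 2 libraries of a group came from separate cultures, and p-values then measure the spread between these libraries, which may be technical.

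The members made up between 1.30% and 1.53% of the protein-coding counts of a library in PD03 removal, and between 1.13% and 1.25% in CHIRON removal. After the filter on low counts, 87 of 91 members were tested in PD03 removal and 90 of 92 in CHIRON removal. Cox4i2, Cox6a2, Cox8c and Ndufa4l2 were too low in the former, and Cox8b and Cox8c in the latter. Levels were compared between genes as CPM per kb of the principal coding transcript, and between libraries as CPM. The tables of the experiments were normalised separately, so levels are not compared across them.

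In PD03 removal the highest members by CPM per kb, as means over 12 libraries, were Atp5b at 1861 and Atp5a1 at 748, which encode the catalytic β and the α subunits of the ATP synthase. They were followed by the complex IV subunits Cox4i1 at 543, Cox6b1 at 496 and Cox8a at 346. Atp5b ranged from 1635 to 2038 and Atp5a1 from 671 to 800 over the libraries, whereas Cox4i1 (472 to 592) and Cox6b1 (435 to 553) overlapped. The lowest of the tested members were Atp5s at 2.04, Ndufb2 at 5.75, Ndufaf7 at 6.54, Ndufab1 at 6.63 and Cox7b2 at 8.26 CPM per kb. These ranks depend on the transcript used, which held 4371 bases for Ndufb2 and 3479 for Ndufab1. The median of the tested members was 908 bases. By CPM at 0 h on soft substrates Ndufb2, at 25.8, was above Ndufs5, at 17.7. In CHIRON removal Cox6a1 (981 to 1249) and Atp5b (952 to 1065) stood highest, with overlapping ranges. Cox8a at 735, Cox7c at 572 and Cox5a at 509 CPM per kb came next. The lowest tested members there were Cox4i2, Cox6a2, Ndufa4l2, Cox7b2 and Atp5s, at means of 0.506 to 1.85 CPM per kb.

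Several complex IV subunits have paralogues that are used in other tissues. The widely expressed forms Cox4i1, Cox6a1 and Cox8a made up at least 99.7% of the summed level per kb of their sets in every library. The hypoxia and lung form Cox4i2, the heart and muscle form Cox6a2 and the Cox8 paralogues reached at most 1.43 CPM per kb. Other sets were mixed. Cox6b2, known from testis, made up 9.52% to 16% of the Cox6b pair in PD03 removal and 14.8% to 20.2% in CHIRON removal. Cox7a1, the form of heart and skeletal muscle, made up 11.6% to 23.2% of the Cox7a set in PD03 removal and 30.2% to 39.5% in CHIRON removal, while the summed muscle markers (Myh6, Myh7, Ckm and Tnnt2) stayed at or below 4.29 CPM. By CPM per kb, Atp5g3 was the highest of the 3 genes for the c subunit of the ATP synthase in both experiments. It held 61.3% to 63.6% and 46.9% to 58% of the set. These shares are uncertain, since 87.4% of the 50-base windows of Atp5g2 and 11.6% of those of Atp5g1 are shared with transcripts of other genes, against 0% of those of Atp5g3. They also depend on the transcript used, which held 4715 bases for Atp5g1 and 723 for Atp5g3. By CPM at 0 h on soft substrates, Atp5g1 and Atp5g3 were at 165 and 164 in PD03 removal. In CHIRON removal they were at 270 and 164.

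**Figure D1:**
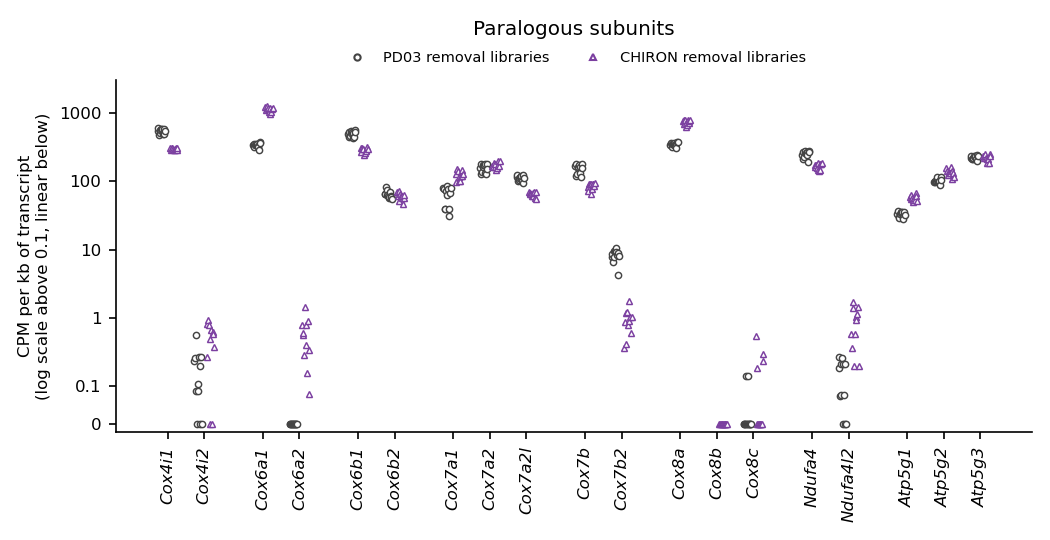
Levels of paralogous subunits in CPM per kb of transcript (y axis, log scale above 0.1 and linear below), with 1 point per library, circles for the 12 libraries of PD03 removal and triangles for the 11 of CHIRON removal. Cox4i2, Cox6a2, Cox8b, Cox8c and Ndufa4l2 lie at or below 1.69 CPM per kb, and Cox7a1 falls to 30.6 in the lowest library of PD03 removal.

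The first question was whether the members responded to the removal of PD03 within 2 h. No member passed an adjusted p of 0.05 in edgeR's quasi-likelihood test at 2 h on either substrate, while 1.96% of all genes tested did so on soft and 2.73% on stiff substrates. At an unadjusted p of 0.05, 4 and 5 of the 87 members passed, and DESeq2 called none. The median log2 fold change of the members was 0.01 on both substrates, and the changes of single members ran from -0.20 to 0.25 on soft and from -0.21 to 0.24 on stiff substrates. The summed level of the members was 14978 ± 556 CPM (SD, n = 2) at 0 h and 15110 ± 519 CPM at 2 h on soft substrates, and 15025 ± 195 CPM and 15184 ± 518 CPM on stiff substrates.

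At 12 h after PD03 removal the members were lower on both substrates, by small amounts and across all 5 complexes. On soft substrates 46 of the 87 members tested fell and 4 rose. On stiff substrates the numbers were 58 and 2 (edgeR, adjusted p under 0.05). As shares of the members, 52.9% fell on soft and 66.7% on stiff substrates, against 15.3% and 19.9% of all genes tested, whereas 4.6% and 2.3% rose, against 14.1% and 18.5%. The median log2 fold change of the members was -0.18 on soft and -0.22 on stiff substrates, and that of all genes tested was 0.00 on both. Over the 4 pairs of a 12 h and a 0 h library the median lay between -0.27 and -0.11 on soft and between -0.25 and -0.17 on stiff substrates.

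Summed over the members, the level was 13202 ± 364 CPM (SD, n = 2) at 12 h on soft substrates, 11.9% below 0 h, and 12994 ± 229 CPM on stiff substrates, 13.5% below 0 h. Both 12 h libraries lay below both 0 h libraries on each substrate. Much of the sum came from 2 genes. At 0 h on soft substrates Atp5b held 3740 and Atp5a1 1913 of 14978 CPM, and the complex V sum with both was 7282 CPM. The sum of the 8 markers of embryonic stem cells was also lower at 12 h. On soft substrates it lay between 7296 and 7484 CPM at 0 h and between 6233 and 6396 CPM at 12 h. On stiff substrates it lay between 7374 and 7428 CPM and between 5967 and 5994 CPM. Among the 8, Pou5f1 ranged from 975 to 1112 CPM and Esrrb from 1035 to 1150 CPM over all PD03 removal libraries, whereas Tfcp2l1 ranged from 1695 to 2549 CPM and Nanog from 763 to 1132 CPM. Their part in the result was not tested. These are levels relative to all protein-coding RNA of a library, and in bulk samples fewer cells with a high level cannot be told apart from less RNA per cell.

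**Figure D2:**
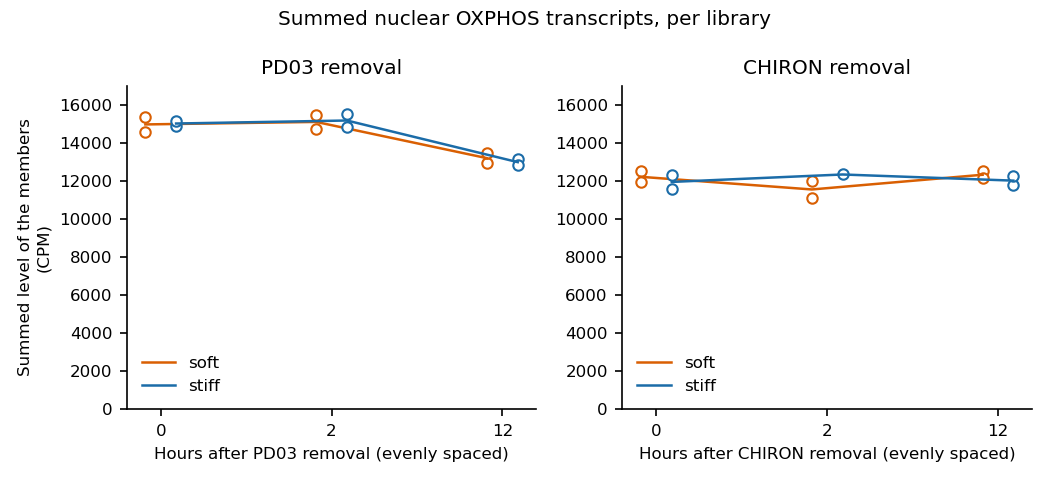
Summed level of the members in CPM (y axis) at 0, 2 and 12 h (x axis, evenly spaced) after removal of PD03 (left) or CHIRON (right). Circles are libraries, with 2 per group except 1 for stiff at 2 h in CHIRON removal, and lines join the group means. After PD03 removal the 12 h libraries lie below the 0 h libraries on both substrates, at 13202 and 12994 CPM on average, and after CHIRON removal the 12 h and 0 h libraries overlap.

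The size of these counts depended on single libraries. Without soft 0 h replicate 2 the number of members called on soft substrates was 20, and without soft 12 h replicate 1 it was 27, in place of 50. On stiff substrates it was 39 without stiff 0 h replicate 2 and 36 without stiff 12 h replicate 2, in place of 60. DESeq2 called 32 members on soft and 48 on stiff substrates. The median of the members stayed below 0 without any 1 of these libraries, from -0.24 to -0.13 on soft and from -0.24 to -0.19 on stiff substrates.

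The fall was found in each complex. Of all genes tested, 15.3% fell on soft and 19.9% on stiff substrates. Complex IV, with 14 members tested, had 10 that fell on soft and 12 that fell on stiff substrates, and its summed level was 14.4% and 15.2% below 0 h. Of the 17 tested members with Atp5 names, counted as complex V, 8 and 10 fell, and their sum was 14.2% below 0 h on stiff substrates. Of the 30 accessory subunits of complex I, 16 and 20 fell, Ndufa4 among them on both substrates, and of its 7 core subunits 4 and 3 fell, with median log2 fold changes of -0.14 on both substrates. In complex III, 4 and 5 of 8 members fell, and in complex II, 2 and 4 of 4. Of the 7 assembly factors of complex I, 2 fell on soft and 4 on stiff substrates. By group, the shares of members that fell ran from 28.6% (assembly factors) to 71.4% (complex IV) on soft substrates. On stiff substrates they ran from 42.9% (complex I core subunits) to 100% (complex II).

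**Figure D3:**
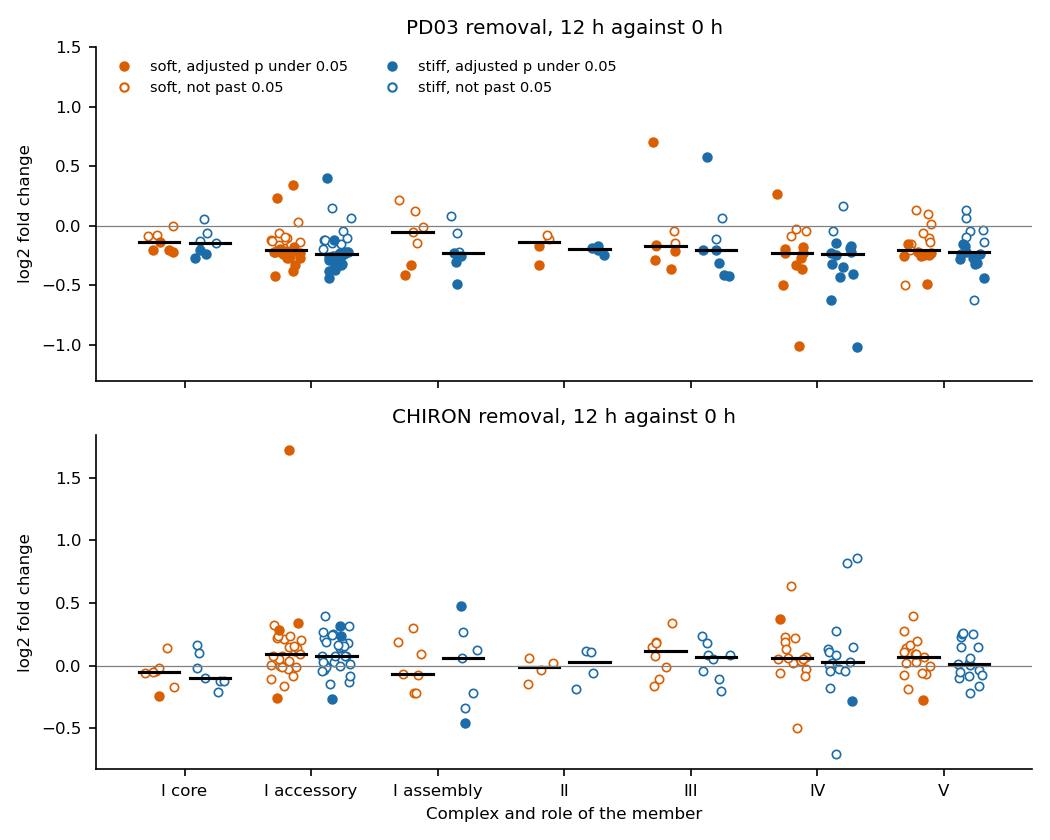
Log2 fold change at 12 h against 0 h (y axis) of each tested member, grouped by complex and role (x axis), after removal of PD03 (top, 87 members) or CHIRON (bottom, 90 members). Orange points are soft and blue points stiff substrates, filled where the adjusted p was under 0.05, and black bars are medians. After PD03 removal the medians of all 7 groups lie below 0 on both substrates, from -0.23 to -0.05, and after CHIRON removal they lie between -0.10 and 0.11.

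The largest fall was that of Cox7a1, the heart and muscle form of subunit VIIa. On soft substrates it was at 31.5 and 30.1 CPM at 0 h, 28.5 and 33.9 CPM at 2 h, and 15.2 and 15.4 CPM at 12 h. On stiff substrates it was at 24.7 and 30.4 CPM at 0 h, 26.8 and 31.3 CPM at 2 h, and 12.0 and 15.6 CPM at 12 h. The 12 h libraries thus stood apart from all others on both substrates. The log2 fold change at 12 h was -1.01 ± 0.12 (SE, adjusted p = 1.54e-07) on soft and -1.02 ± 0.13 (adjusted p = 2e-07) on stiff substrates, by edgeR. Cox7a2, the form found in most tissues, went from 103 and 119 to 83.7 and 88.8 CPM on soft substrates and from 113 and 118 to 86 and 85.5 CPM on stiff substrates. Its log2 fold change was smaller, at -0.36 and -0.43. The third of the set, Cox7a2l, which binds complexes III and IV into supercomplexes, fell by 0.23 and 0.24 on the log2 scale. In the other paralogue sets, Cox6b1 fell by 0.20 and 0.22, Ndufa4 by 0.20 and 0.27 and Atp5g1 by 0.24 and 0.32, whereas Cox8a, at -0.05 on both substrates, and Atp5g2, at 0.02 and -0.04, did not pass. Over 9 other settings the calls of Ndufa4 held in 5 on soft and 8 on stiff substrates. Those of Cox6b1 and Atp5g1 held in 8 and 9, and those of Cox7a1 and Cox7a2 in 9 on both.

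Cox7b, another small subunit of complex IV, went from 169 and 180 CPM to 119 and 127 CPM on soft substrates, and from 171 and 162 CPM to 134 and 117 CPM on stiff substrates. Its log2 fold change was -0.50 ± 0.06 (adjusted p = 3.62e-07) and -0.41 ± 0.06 (adjusted p = 6.62e-06). Atp5k, the e subunit with which ATP synthases are held together as dimers, went from 42.9 and 47.6 CPM to 29.3 and 35.2 CPM on soft substrates. On stiff substrates it went from 45.4 and 43.0 to 35.2 and 29.8 CPM, and its log2 fold changes were -0.48 and -0.44. Uqcrb, a small subunit of complex III, fell by 0.36 and 0.42 on the log2 scale, and went from 89.4 and 88.9 to 67.8 and 65.7 CPM on stiff substrates. In its transcript 43.4% of all windows of 50 bases are shared with transcripts of other genes, mostly processed pseudogenes, so its counts are uncertain. Ndufaf7, a methyltransferase needed to assemble complex I, was at 12.0 and 13.9 CPM at 0 h and at 9.58 and 8.99 CPM at 12 h on stiff substrates, and its log2 fold changes were -0.41 and -0.49. In all of these members each 12 h library lay below each 0 h library of its substrate. Over the 9 other settings the calls of Ndufaf7 held in 4 on soft and 7 on stiff substrates. Those of Cox7b, Atp5k and Uqcrb held in 9 on both.

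Values follow for 10 subunits chosen for their roles, which include the catalytic subunit Atp5b. Atp5b was at 3659 and 3822 CPM at 0 h and at 3172 and 3270 CPM at 12 h on soft substrates, and at 3704 and 3714 against 3132 and 3161 CPM on stiff substrates. Its log2 fold change was -0.22 ± 0.03 (adjusted p = 1.69e-05) and -0.24 ± 0.03 (adjusted p = 2.54e-06). Atp5a1 fell by 0.15 and 0.22 on the log2 scale, the complex IV subunit Cox4i1 by 0.23 and 0.22, and Cox5a, next to it in complex IV, by 0.22 and 0.34. Ndufs1, the largest iron-sulfur subunit of complex I, fell by 0.14 and 0.20, and the iron-sulfur subunit of complex II, Sdhb, by 0.33 and 0.24. The Sdhb libraries of 0 h (120 and 143 CPM) and 12 h (121 and 101 CPM) overlapped on stiff substrates. Over the 9 other settings the calls of Ndufs1 held in 4 on soft and 7 on stiff substrates, and those of Sdhb in 9 and 7. Those of Atp5a1 and Cox5a held in 7 and 9, and those of Atp5b and Cox4i1 in 9 on both. Parts of the transcripts of Atp5a1, Cox4i1, Cox5a and Ndufs1 overlap antisense genes, and whether counting used strand is not given in the sources used here.

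The others of these 10 did not pass on both substrates. Sdha, the flavoprotein of complex II, had log2 fold changes of -0.11 (adjusted p = 0.0831) on soft and -0.18 (adjusted p = 0.00258) on stiff substrates. The Rieske protein gene Uqcrfs1 had -0.14 (adjusted p = 0.0699) and -0.20 (adjusted p = 0.00852). Ndufv1, which binds NADH in complex I, had -0.07 and -0.06, and Uqcrc1, a large core protein of complex III, had -0.05 and 0.07, with no adjusted p under 0.29. Uqcrc1 was at 407 and 417 CPM at 0 h and at 394 and 405 CPM at 12 h on soft substrates.

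A few members rose. Uqcrq, the ubiquinone-binding subunit VII of complex III, was at 11.4 and 13.8 CPM at 0 h, 14.8 and 13.5 CPM at 2 h and 20.5 CPM in both libraries at 12 h on soft substrates. On stiff substrates it was at 11.5 and 15.6 CPM at 0 h, 18.3 and 14.0 CPM at 2 h and 22.5 and 18.2 CPM at 12 h. All 12 h libraries lay above the 0 h libraries of their substrate, while 2 h and 12 h overlapped on stiff substrates. Its log2 fold change was 0.70 ± 0.14 (adjusted p = 0.000342) and 0.58 ± 0.14 (adjusted p = 0.00168). At 10.7 CPM per kb it was 82nd of the 87 tested members, low for a complex III subunit, and in CHIRON removal it was 61st of 90. None of its 50-base windows is shared with another gene. Whether all its reads were counted in PD03 removal was not tested, and its level and change there are uncertain. Ndufab1, the acyl carrier protein that also serves mitochondrial fatty acid synthesis, went from 21.8 and 18.2 to 23.8 and 27.2 CPM on soft substrates and from 21.4 and 20.7 to 28.7 and 26.6 CPM on stiff substrates. Its log2 fold change was 0.35 and 0.40. It was 84th of 87 by CPM per kb, with a transcript of 3479 bases. With 12.3% of its windows shared and 269 bases that overlap an antisense gene, its counts are uncertain as well. On soft substrates alone, Ndufa8 and Cox6b2 rose by 0.23 and 0.27 on the log2 scale, and their values on stiff substrates were 0.15 and 0.16, which did not pass. Over the 9 other settings the soft calls of Ndufa8 and Cox6b2 held in 5 and 7. The calls of Uqcrq held in 9 on soft and 7 on stiff substrates, and those of Ndufab1 in 7 and 9.

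Upstream sequence is shown for 4 members that passed on both substrates in at least 1 experiment, and for Sdha as an example of a stretch with motif matches. RefSeq windows of 250 bases before to 50 bases after the start (build GRCm38.p6) were found for 74 of the 92 members, and 31.1% of these held GCGCNTGCG, a core of the site of NRF1, a factor known to activate respiratory genes. Of the windows of all 27025 genes, 6.59% held it. CCGGAAG, a core of ETS sites such as those of GABPA, was in 21.6% of the members' windows and 9.12% of all, and AAGATGGCG, a core of YY1 sites, in 8.11% and 1.49%. Both strands were searched, matches could overlap, and the last letters of the ETS core are the first of the YY1 core. A match is no evidence of binding. Among the members that fell on soft substrates, 19.4% of 36 windows held the NRF1 core, against 43.2% of 37 among those that did not fall, while on stiff substrates the shares were 31.2% of 48 and 32% of 25. The sequences run 5′ to 3′ and end before the starts annotated by RefSeq and GENCODE, with motif matches in capitals. They are Cox7a1 (chr7:30184021-30184143, plus strand), Cox7b (chrX:106015550-106015699, plus strand), Cox7a2 (chr9:79759879-79760003, minus strand), Ndufa3 (chr7:3617223-3617372, plus strand) and Sdha (chr13:74350281-74350390, minus strand).
Cox7a1: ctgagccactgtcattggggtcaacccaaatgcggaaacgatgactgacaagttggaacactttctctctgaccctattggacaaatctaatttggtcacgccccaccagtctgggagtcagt
Cox7b: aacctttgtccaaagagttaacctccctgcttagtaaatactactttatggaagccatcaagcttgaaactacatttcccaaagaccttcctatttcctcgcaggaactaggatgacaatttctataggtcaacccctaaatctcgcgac
Cox7a2: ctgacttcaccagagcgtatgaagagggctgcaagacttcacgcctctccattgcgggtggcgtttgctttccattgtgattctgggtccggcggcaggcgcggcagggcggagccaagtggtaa
Ndufa3: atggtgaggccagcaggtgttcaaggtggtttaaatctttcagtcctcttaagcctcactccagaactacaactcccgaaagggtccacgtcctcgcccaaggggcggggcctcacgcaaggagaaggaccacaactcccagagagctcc
Sdha: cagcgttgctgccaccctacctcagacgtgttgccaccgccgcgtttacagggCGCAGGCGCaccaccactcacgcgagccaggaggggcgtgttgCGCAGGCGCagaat
The stretch before Sdha, with the NRF1 core at 2 places, was picked for its matches. The other 15 of 16 stretches read held none of the 3 motifs, those before Uqcrc1 and Ndufv1, which did not pass the test, included. The stretches are 48 to 150 bases long and leave out parts of the windows. The window of Uqcrc1 held 3 matches of the NRF1 core, all after the start, and those at 30 and 31 bases overlap on opposite strands. That of Atp5k, which fell, held 2 matches before the start, which also overlap on opposite strands. The stretches therefore cannot show whether members that fell differ from others. GC content was 41.3% before Cox7b and 67.3% before Sdha.

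The substrates were compared next, since the study asked how stiffness acts on these cells. No member differed between soft and stiff substrates at 0, 2 or 12 h of PD03 removal, while 0.0298%, 0.134% and 0.776% of all genes tested did so. At an unadjusted p of 0.05, 1, 2 and 3 members passed, and DESeq2 called none. The median difference, soft minus stiff, was -0.02 at 0 h, -0.03 at 2 h and 0.02 at 12 h on the log2 scale. At 12 h the smallest p was that of Cox6b2, at 48.9 and 43.5 CPM on soft and 40.5 and 36.0 CPM on stiff substrates, a log2 difference of 0.27 (95% interval 0.11 to 0.43, adjusted p = 0.138). Ndufb9 differed by 0.13 (0.02 to 0.24, adjusted p = 0.402). At 0 h the smallest p-values were those of Ndufs3, at 0.15 (0.01 to 0.30), and Cox6b2, at 0.16 (0.00 to 0.32), and at 2 h those of Atp5o, at 0.17 (0.06 to 0.28), and Uqcrc1, at -0.13 (-0.24 to -0.02), with adjusted p-values of 0.352 or more.

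Nor did the response to PD03 removal differ between substrates for any member, at 2 h (0.00746% of all genes tested differed) or at 12 h (0%, with 899 of 13404 genes at an unadjusted p under 0.05). At an unadjusted p of 0.05, 3 members passed at each time, and DESeq2 called none. At 12 h the median difference of the members' log2 fold changes, soft minus stiff, was 0.04, and over the 16 combinations of libraries it lay between -0.07 and 0.15. Of the 73 members below 0 on both substrates, 47 were further below 0 on stiff substrates. The differences with the smallest p were Ndufa9 at 0.18 (95% interval 0.03 to 0.34), Ndufb11 at 0.28 (0.04 to 0.52) and Ndufb2 at 0.30 (0.02 to 0.59), with adjusted p-values of 0.676 or more. Of the 46 members that fell on soft substrates 40 (87%) also fell on stiff substrates, and these were 69% of the 58 that fell there. This overlap was not counted over all genes tested, so it cannot be read as particular to the members. Across the 87 members the changes on the substrates, which share no library, had a Pearson r of 0.841 and a Spearman rho of 0.634, with a Pearson r of 0.719 across all genes tested.

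**Figure D4:**
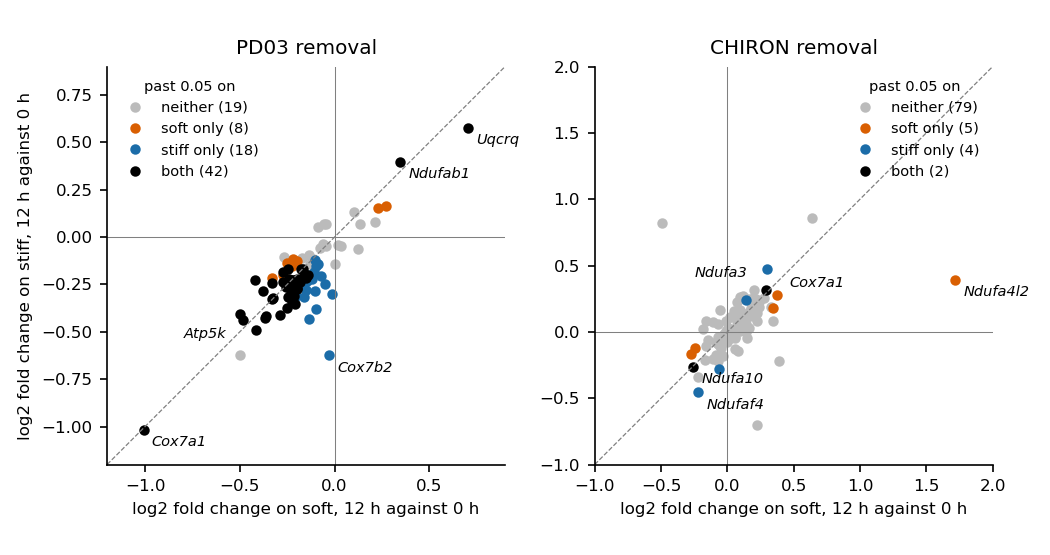
Log2 fold change at 12 h against 0 h on soft (x axis) and stiff substrates (y axis) of each tested member after removal of PD03 (left) or CHIRON (right), coloured by the substrates on which the adjusted p was under 0.05, with the number of members in the legend. The dashed line marks equal change. After PD03 removal 42 members passed on both substrates, 40 of them in the lower left, and after CHIRON removal 2 did.

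Removal of CHIRON gave another picture. At 2 h no member passed the test on soft or stiff substrates, where 0.184% and 0.099% of all genes tested did, and 3 and 4 members had an unadjusted p under 0.05, with none called by DESeq2. The median was -0.07 on soft substrates and 0.08 on stiff substrates, the latter from the 1 library that was left. At 12 h, 4 of the 90 members tested rose and 3 fell on soft substrates, and 3 rose and 3 fell on stiff substrates. These are 4.44% and 3.33% of the members on soft and 3.33% each on stiff substrates, against 10.4% of all genes that rose and 7.95% that fell on soft and 9.45% and 8.14% on stiff substrates. The median of the members was 0.06 on both substrates. Leaving out stiff 0 h replicate 1 or stiff 12 h replicate 2 brought the stiff median to 0.00.

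Summed over the members, the level in CHIRON removal was 12221 ± 411 CPM (SD, n = 2) at 0 h and 12331 ± 251 CPM at 12 h on soft substrates, and 11953 ± 550 and 12020 ± 321 CPM on stiff substrates. The libraries of both times overlapped. By role, the sums of the complex I core subunits at 12 h lay below those of both 0 h libraries, by 3.33% on soft and 3.59% on stiff substrates. Atp5b was at 1982 and 2040 CPM at 0 h and at 1936 and 1899 CPM at 12 h on soft substrates. Its log2 fold change was -0.07 (95% interval -0.22 to 0.08), and -0.04 (-0.19 to 0.12) on stiff substrates. Cox4i1 was at 0.02 on both substrates (-0.12 to 0.16 on each), and neither gene passed the test.

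The members that passed on both substrates after CHIRON removal belong to complex I. Ndufa10, an accessory subunit of its membrane arm, was at 142 and 147 CPM at 0 h and at 125 and 116 CPM at 12 h on soft substrates, and at 135 and 152 against 119 and 121 CPM on stiff substrates. It fell by 0.26 on the log2 scale on both (adjusted p = 0.0245 and 0.0243). Ndufa3, another accessory subunit, was at 79.4 and 68.0 CPM at 0 h and at 85.5 and 94.7 CPM at 12 h on soft substrates, and at 69.3 and 64.0 against 83.6 and 82.4 CPM on stiff substrates. It rose by 0.29 and 0.32 (adjusted p = 0.0322 and 0.0215). Over the 11 other settings the calls of Ndufa10 held in 6 on soft and 5 on stiff substrates, and those of Ndufa3 in 5 and 6.

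Other calls held on 1 substrate. On soft substrates Ndufa11 and Cox7a1 rose by 0.34 and 0.38 on the log2 scale, and Ndufs7, which carries an iron-sulfur cluster of complex I, and Atp5c1, the γ subunit that rotates in the ATP synthase, fell by 0.24 and 0.27. Ndufa4l2, the paralogue of Ndufa4 known to be induced in hypoxia, rose by 1.72 ± 0.51 (adjusted p = 0.0265) on soft substrates, from 11 and 8 counts to 42 and 20 counts, and had 18 and 16 counts at 0 h and 21 and 25 counts at 12 h on stiff substrates. On stiff substrates the assembly factor Ndufaf3 and the subunit Ndufb8 rose by 0.47 and 0.24, and the assembly factor Ndufaf4 and Cox7a2l fell by 0.45 and 0.28. Over the 11 other settings the calls of these members held in 8 at most, and that of Ndufb8 in 0.

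Without any 1 of the 4 libraries compared, the number of members called at 12 h was 1 to 3 on soft substrates and 0 to 6 on stiff substrates. It was 1 without soft 0 h replicate 2 or without soft 12 h replicate 2, and 3 without either of the other soft libraries of 0 h and 12 h. On stiff substrates it was 0 without stiff 12 h replicate 2, 1 without stiff 0 h replicate 2 and 2 without stiff 12 h replicate 1.

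Soft and stiff substrates did not differ for any member in CHIRON removal either, at 0, 2 or 12 h, nor did the responses at 2 or 12 h. In each of these comparisons 0% of all genes tested passed, and DESeq2 called no member. At an unadjusted p of 0.05, between 0 and 3 members passed, and between 419 and 805 of all 14145 genes. The members with the smallest p at 0 h were Ndufab1, with a log2 difference of 0.21 (95% interval 0.04 to 0.38), and Ndufa4l2, at -1.06 (-2.13 to 0.00). At 2 h they were Atp5l, at -0.37 (-0.59 to -0.14), and Cox7a2, at -0.30 (-0.56 to -0.04). At 12 h they were Cox7a2l, at 0.21 (0.06 to 0.36), and Ndufb11, at 0.21 (0.04 to 0.38), with adjusted p-values of 0.836 or more throughout. At 2 h the median difference was -0.11, with 1 library on stiff substrates, and it was 0.15 with the discarded library added.

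The values of both experiments are given side by side, and their difference was not tested in 1 model, since their tables were made separately. Libraries of 1 group scattered more in CHIRON removal, with a biological coefficient of variation of 0.0795 against 0.0386 in PD03 removal, so that a change of a given size was less likely to be called there. Of the 46 that fell on soft substrates at 12 h after PD03 removal, 1 fell and 2 rose after CHIRON removal, and their median there was 0.05. Of the 58 that fell on stiff substrates, 3 fell and 2 rose after CHIRON removal, with a median of 0.02. The same counts were not made over all genes. Of all genes tested in CHIRON removal, 7.95% fell and 10.4% rose on soft and 8.14% and 9.45% on stiff substrates. Ndufa3 passed in opposite directions on both substrates, at -0.33 and -0.33 after PD03 removal and 0.29 and 0.32 after CHIRON removal. Cox7a1 did so on soft substrates, at -1.01 and 0.38, and Ndufb8 on stiff substrates, at -0.26 and 0.24. After CHIRON removal these calls held in 5 and 6 of 11 other settings for Ndufa3, in 3 for Cox7a1 and in 0 for Ndufb8. Across the 87 members tested in both experiments the Pearson r of the changes was -0.263 on soft and 0.090 on stiff substrates (Spearman rho -0.257 and -0.033), and across 13073 genes it was -0.001 and 0.013. The experiments share no library.

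**Figure D5:**
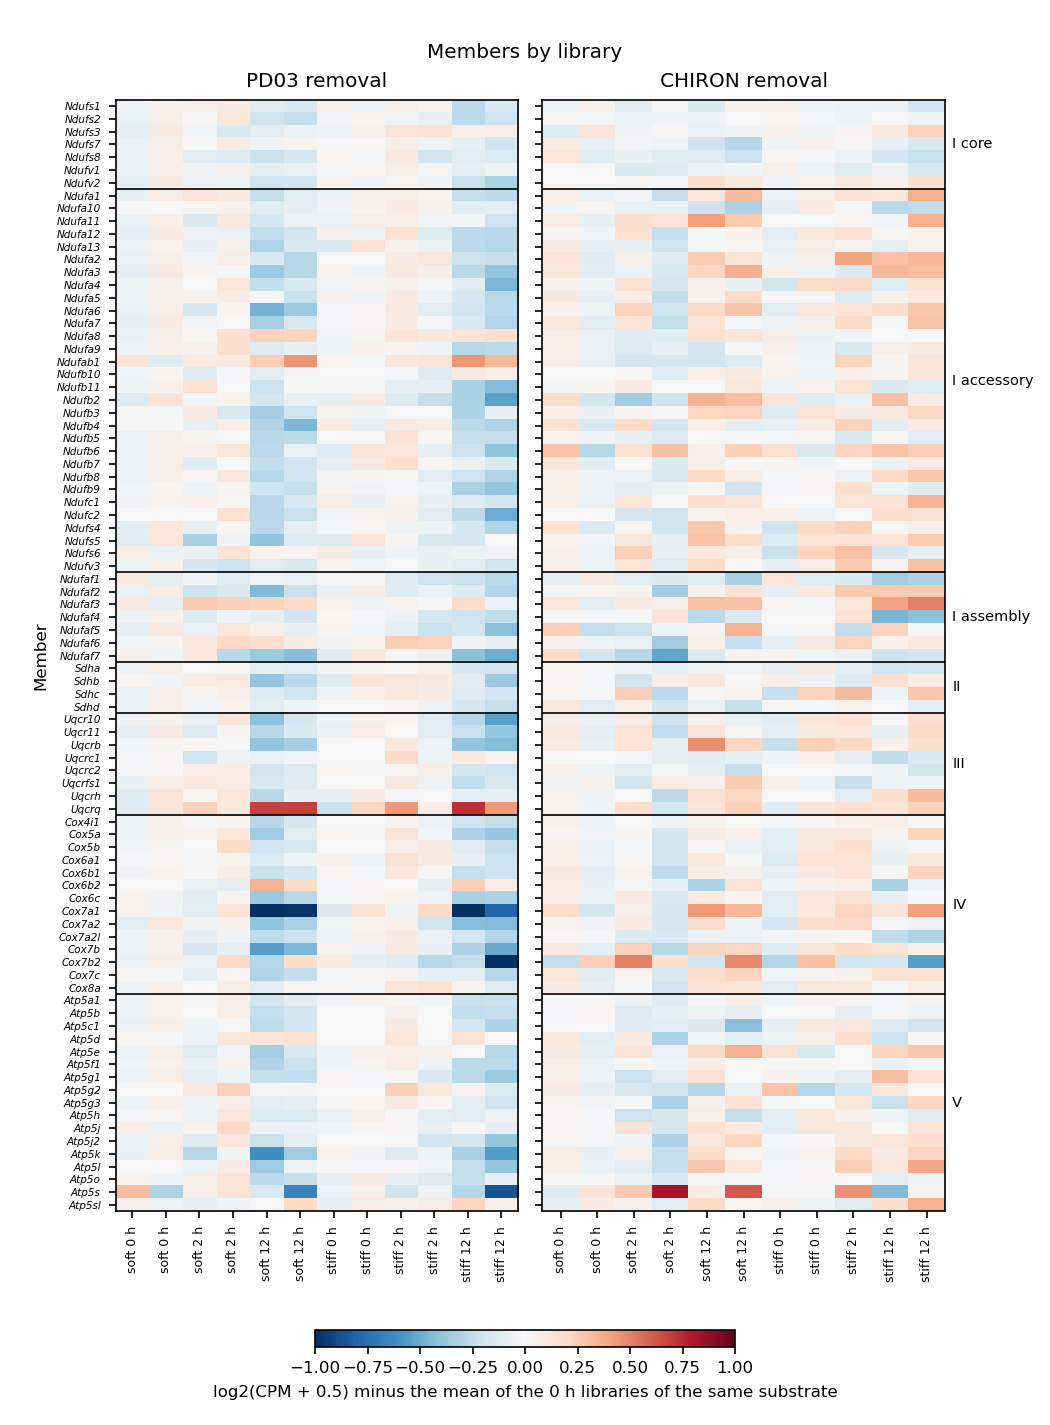
Members tested in both experiments (rows, grouped by complex) in each library (columns) as log2(CPM + 0.5) minus the mean of the 0 h libraries of the same substrate, in blue where lower and red where higher. The 12 h libraries of PD03 removal are blue over most rows, with Uqcrq and Ndufab1 in red, and Cox7a1 in dark blue in all 4 of them (fitted changes of -1.01 and -1.02). Colours stop at 1 in either direction.

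Other mitochondrial gene lists are described by their counts at 12 h of PD03 removal, where 15.3% of all genes tested fell and 14.1% rose on soft, and 19.9% fell and 18.5% rose on stiff substrates. No list was tested against another. Of 40 assembly factors outside the name rule 2 fell on soft and 4 on stiff substrates, where 1 rose, with medians of -0.03 and -0.01. These are 5% and 10% that fell, below the shares of all genes. Among them Timmdc1 fell by 0.54 and Acad9 by 0.24 on stiff substrates. Of 13 electron carrier genes 3 (23.1%) fell and 1 rose on each substrate. Cycs, which encodes cytochrome c, fell by 0.27 and 0.32 on the log2 scale, while Cyc1, the cytochrome subunit of complex III that the name rule leaves out, rose by 0.30 and 0.28. Of 13 enzymes of the TCA cycle 4 (30.8%) and 5 (38.5%) fell, above the shares of all genes, and 1 rose on each substrate, and the succinyl-CoA ligase genes Sucla2 and Suclg1 fell by 0.41 and 0.27 on stiff substrates. Of 76 mitochondrial ribosomal protein genes 9 (11.8%) and 10 (13.2%) fell, below the shares of all genes, and 2 and 7 rose, with medians of -0.07 and -0.08, and Mrpl24 and Mrpl37 rose by 0.31 and 0.29 on stiff substrates.

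Of 12 regulators of respiratory genes tested, 4 rose on soft substrates and none fell, and on stiff substrates 4 rose and 2, Nrf1 and Gabpa, fell. Pprc1, a coactivator of the PGC-1 family, rose by 0.40 on stiff substrates (adjusted p = 3.91e-07) and Yy1 by 0.29 on both. Ppargc1b, which encodes the coactivator PGC-1β, rose by 1.07 and 0.97. Nrf1 had log2 fold changes of -0.08 (adjusted p = 0.289) and -0.14 (adjusted p = 0.0303), and Gabpa of -0.07 and -0.12. After CHIRON removal Yy1 rose by 0.29 on soft substrates, and Pprc1 fell by 0.28 on soft and 0.26 on stiff substrates.

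At 12 h of CHIRON removal 10.4% of all genes tested rose and 7.95% fell on soft, and 9.45% and 8.14% on stiff substrates, and the shares of the next 4 lists were below these. Of the 40 assembly factors 2 rose and 2 fell on soft and 2 rose and 3 fell on stiff substrates, where Lrpprc, which stabilises mitochondrial mRNA, fell by 0.36 and Coa6, a copper factor of complex IV, rose by 0.63. Of the 76 ribosomal protein genes 1 rose and 4 fell on soft and 1, Mrpl14, rose by 0.50 on stiff substrates. The electron carriers and the TCA cycle enzymes had 1 gene each that fell on soft substrates and none that passed on stiff substrates.

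Subunits encoded by mitochondrial DNA rose after PD03 removal. At 2 h, when the median of the members was 0.01, 5 of 13 had risen on soft and 10 on stiff substrates, with medians of 0.28 and 0.44. Of all genes tested, 1.31% and 1.84% had risen at 2 h, and 14.1% and 18.5% at 12 h. Of the 13 mitochondrially encoded subunits, 10 and 12 had risen at 12 h, with medians of 0.87 and 0.99, and none fell at either time. Both mt-Co1, at 0.87 and 0.97, and mt-Cytb, at 0.91 and 1.13, rose on both substrates. After CHIRON removal 6 of 13 fell on soft substrates, with a median of -0.50, and none passed on stiff substrates, where the median was -0.10. Of all genes tested there, 7.95% fell on soft and 8.14% on stiff substrates at 12 h. The part of the mitochondrially encoded subunits in the nuclear result was not tested. Between the normalisations and gene filters tried, the median of the members after PD03 removal ran from -0.18 to -0.17 on soft and from -0.23 to -0.21 on stiff substrates.

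Protein-coding genes held 76.7% to 77.5% of the counts at 0 h, 74% to 76.6% at 2 h and 73.1% to 74.5% at 12 h of PD03 removal. The library with 74% at 2 h (stiff replicate 1) had the highest member sum of the experiment, 15550 CPM. It is a single library of another time, and the part of the protein-coding share in the result was not tested. The principal transcripts of the tested members had a median length of 908 bases, against 2966 for all genes tested. Across all genes the log2 fold change at 12 h of PD03 removal and the transcript length had a Spearman rho of 0.122 on soft and 0.119 on stiff substrates. Across the members it was 0.275 and 0.149. At 12 h of CHIRON removal it was -0.375 on soft and -0.342 on stiff substrates across the members, and -0.004 and -0.038 across all genes. The part of length in the result was not tested. Of the 92 members, 32 have exons that overlap another gene and 30 share 10% or more of their 50-base windows with transcripts of other genes. The 47 tested members with neither had 22 that fell and 3 that rose on soft and 29 that fell and 1 that rose on stiff substrates, with medians of -0.17 and -0.22.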

How the data were processed

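Members and gene lists were chosen with earlier results of these data known. RNA was depleted of ribosomal RNA and sequenced. According to the labels and methods, the authors trimmed reads (Trim Galore), aligned them to mm10 with TopHat2 2.1.0, counted reads per gene with featureCounts 1.5.0 and deposited raw counts, with the strand setting not given in the sources used here. The table of PD03 removal held 23 empty lines and 12 columns of per-sample values of other samples, which were not used.

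Protein-coding genes (GENCODE M21) with at least 10 counts at the median library size in 2 libraries and a total of 15 were kept (13404 and 14145 genes), normalised by TMM and fitted with edgeR 4.0.16 (R 4.3.3) by quasi-likelihood over the 6 groups of an experiment. Stiff at 2 h of CHIRON removal, with 1 library, was assumed to vary like the other groups. Benjamini-Hochberg adjustment ran over all genes tested. SE was the log2 fold change divided by the square root of F, and 95% intervals were normal. CPM used TMM library sizes. The script was tested on simulated data.

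Replicates scattered 2.19 to 18.6 times as much as counting noise, so none was a repeat deposit. Same-numbered libraries did not deviate together (correlations -0.114 to 0.113), and numbers were not taken to pair them.

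The genes named were members past the threshold on both substrates at 12 h (up to 6 a direction), the 2 smallest p-values between substrates at each time, the highest and lowest 5 levels, paralogue sets, 10 subunits chosen for their roles, members with opposite changes, and the 2 smallest adjusted p-values of each other list. The members called on 1 substrate, Ndufa8, Ndufa9, Ndufb2, Nrf1, Gabpa and Ppargc1b were named after their values were seen. The stretch before Sdha was added for its motif matches, also after they were seen. Alternatives were DESeq2 1.42.0, its size factors, no filter, all genes, blocks by replicate or tube number, the discarded library and leaving out each library.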

Additional observations from a re-analysis of the deposited data

How the results depend on the processing

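Counts of members called at 12 h of PD03 removal on soft substrates (50) were 32 with DESeq2. Those at 12 h of CHIRON removal on soft substrates (7) were 4 with DESeq2, 2 with all genes in place of protein-coding genes, and 0 with all 12 libraries. On stiff substrates (6) they were 0 with all 12 libraries. The cause was not tested. With the replicate number as a block the counts at 12 h were 51 and 60 for PD03 removal and 3 and 5 for CHIRON removal on soft and stiff substrates, and with a block by tube number 2 and 3 for the latter. The libraries share only these numbers. No member was called at 2 h, between substrates or for the difference in response in any of the alternatives.

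With each library left out in turn, counts at 12 h lay between 20 and 46 on soft and 36 and 52 on stiff substrates for PD03 removal, and between 1 and 3 and between 0 and 6 for CHIRON removal. They were 0 to 0 elsewhere. The median of the members at 12 h of CHIRON removal on stiff substrates turned from 0.06 to -0.0027 without stiff 0 h replicate 1 and to -0.0003 without stiff 12 h replicate 2, and was 0.0998 at most, without stiff 0 h replicate 2. No other median of a comparison with called members changed sign. With 2 libraries a group and a depth of 16222196 counts or more, differences of members with few counts, such as Ndufa4l2, were the least certain.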
